A study of Rattus norvegicus with 6 samples.

Results

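The urokinase receptor and its partners in plasminogen activation were followed through 6 genes: Plaur, Plau, Plat, Serpine2, Serpinb2 and Serpinf1. They were read by all 8 probe sets, of 31099 on the array, whose only gene symbol in the array annotation was one of these names. Plaur and Plau had 2 probe sets each and the other genes 1. Only 1387269_s_at, of Plaur, carried a suffix (_s_at) that marks probes shared between transcripts, and none carried _x_at. The set was chosen by the signal of Plaur on 1387269_s_at, which differed between the groups in earlier results of these same arrays, and the other genes were added for their place in the system. Every difference between the groups is therefore given here as a description of the members and not as a test.

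The samples were whole ovaries of 4-day-old female Sprague-Dawley rats kept in organ culture on floating filters for 48 h. The control group of 3 samples received no factor, and the NT3 group of 3 samples received recombinant human NT3, a neurotrophin, at 50 ng/ml. Both groups shared a medium with albumin, albumax, ascorbic acid, transferrin and antibiotics, and each sample pooled 2 to 3 ovaries. RNA was hybridised to Affymetrix 1-colour arrays, and each value is a MAS5 signal, a linear intensity summarised over the probes of 1 probe set. The study's title concerns the step from primordial to primary follicles, and the question here is which transcripts of this system differ when NT3 is added. Values of single arrays are always listed in the order of replicates 1 to 3.

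Plasminogen activation turns the inactive plasma protein plasminogen into plasmin, a broad serine protease that dissolves fibrin and cuts matrix proteins. Urokinase (Plau) and tissue plasminogen activator (Plat) perform the cut, and the receptor Plaur, held on the cell surface by a lipid anchor, gathers urokinase where cells contact the matrix. The inhibitors Serpine2 and Serpinb2 trap the activators, and in the ovary this system is best known from the rupture of the follicle at ovulation. Plasmin can also cut the precursors of neurotrophins.

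Plaur was the member whose signal separated the groups, and it did so on both of its probe sets. The bases just before the start of Plaur are shown because Plaur carries that difference, and those of Plau because its product is the ligand. Both are the 250 bases before the gene start in RefSeq on the GRCr8 build, 5′ to 3′ on the gene's strand, with Plaur at chr1:89181113-89181362 on the + strand and Plau at chr15:3511988-3512237 on the - strand. Capitals mark matches to the AP-1 site TGANTCA or, on either strand, the GC box GGGCGG.
Plaur: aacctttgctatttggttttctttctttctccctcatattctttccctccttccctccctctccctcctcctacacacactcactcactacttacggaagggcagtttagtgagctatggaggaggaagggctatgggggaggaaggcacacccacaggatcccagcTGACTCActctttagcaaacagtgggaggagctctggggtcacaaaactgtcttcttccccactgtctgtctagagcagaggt
Plau: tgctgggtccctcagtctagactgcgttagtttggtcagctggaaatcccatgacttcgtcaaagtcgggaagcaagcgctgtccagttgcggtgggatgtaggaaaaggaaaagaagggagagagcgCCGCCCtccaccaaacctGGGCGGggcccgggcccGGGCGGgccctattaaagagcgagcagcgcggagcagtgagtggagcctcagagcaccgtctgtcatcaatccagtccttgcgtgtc

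The Plaur window held 1 AP-1 match, TGACTCA, from 83 to 77 bases before the start, and no GC box. The Plau window held 3 GC boxes and no AP-1 match. Windows were on hand for 5 of the 6 members, all but Plat. Among them the AP-1 letters also stood in Serpinb2 and the GC box also in Serpine2, which had 6 of them, some overlapping. Over all 33469 windows of this length, 6.34% held TGANTCA and 30.5% held GGGCGG. The letters TATAAA and TGACGTCA (a cAMP response element), searched on both strands, stood in no member window and in 12.9% and 1.59% of all windows. These are matches of letters, and the arrays say nothing of any factor bound there.

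On the shared probe set 1387269_s_at, Plaur had signals of 24.3, 26.4 and 50.8 on the control arrays and 88.2, 55.2 and 54.2 on the NT3 arrays. Every NT3 array lay above every control array, but NT3 replicates 2 and 3 lay only just above control replicate 3. The mean signal was 33.8 ± 14.7 without and 65.9 ± 19.3 with NT3 (SD, n = 3). The log2 difference, NT3 minus control, was 1.01 ± 0.37 (SE), or 2.01-fold, with a 95% interval of 0.18 to 1.83. The same contrast chose Plaur, and this interval takes no account of that choice, so its distance from 0 is not a test. Here and for all members the SE comes from limma's moderated variances over all 31042 probe sets that are not array controls.

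The second Plaur probe set, 1371286_at, lay much lower, at 9.5, 6.6 and 3.4 on the control arrays and 15.9, 19.3 and 14.3 on the NT3 arrays. Again no NT3 array reached down to the controls. The mean was 6.50 ± 3.05 without and 16.5 ± 2.55 with NT3 (SD, n = 3), and the log2 difference was 1.45 ± 0.58 (SE), with a 95% interval of 0.14 to 2.76. This interval too takes no account of the choice of Plaur and is not a test. With 16 added to every signal, which damps differences between low values, the log2 difference was 0.54 ± 0.18. These were the only member probe sets, 2 of 8, whose groups did not overlap. Among all 31042 probe sets 7.16% did not overlap, 2.88% with NT3 higher and 4.28% with NT3 lower. Since that contrast chose Plaur, nothing is read from the comparison of these shares.

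**Figure D1:**
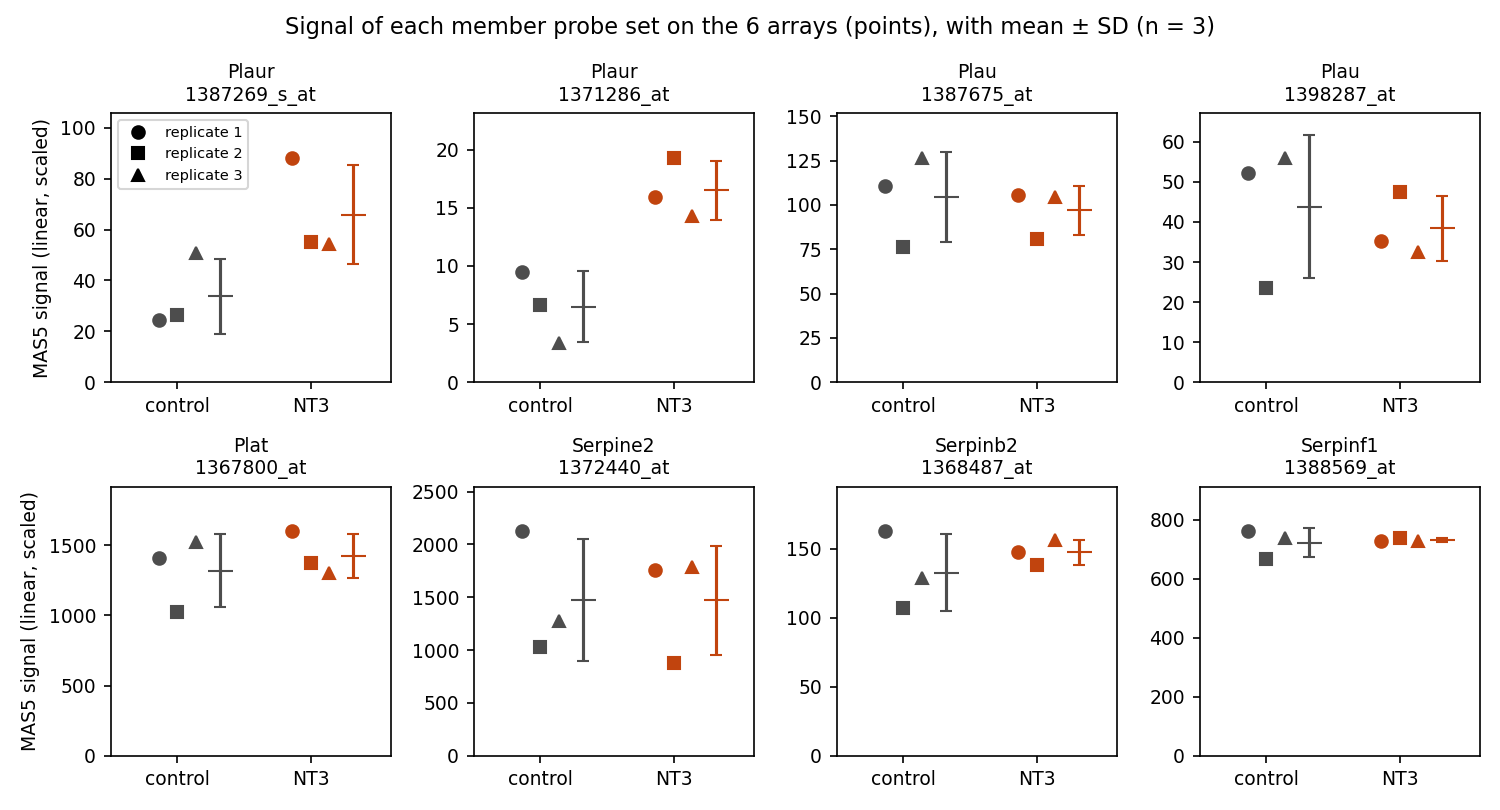
Each panel plots 1 member probe set, with the linear MAS5 signal on the y axis, the 6 arrays as points whose shape gives the replicate number, and the mean ± SD (n = 3) beside each group. The 2 Plaur panels show 3 NT3 points above all control points, and in the other 6 panels the groups overlap.

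The 2 Plaur probe sets did not follow each other within the groups. The control array highest on 1387269_s_at, replicate 3, was the lowest on 1371286_at, and NT3 replicate 1, the highest on the former at 88.2, was in the middle on the latter. Across the 6 arrays their log2 signals correlated at r = 0.40, and their deviations from the group means at r = -0.79, a description over few arrays that share their labelling and hybridisation. Between arrays of the same replicate number, the log2 difference on 1387269_s_at was 1.86, 1.06 and 0.093 for numbers 1, 2 and 3. On 1371286_at it was 0.74, 1.55 and 2.07. All 3 numbered pairs were higher in NT3 on both probe sets, as under any pairing of arrays whose groups do not overlap. The sizes ran in opposite order.

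**Figure D2:**
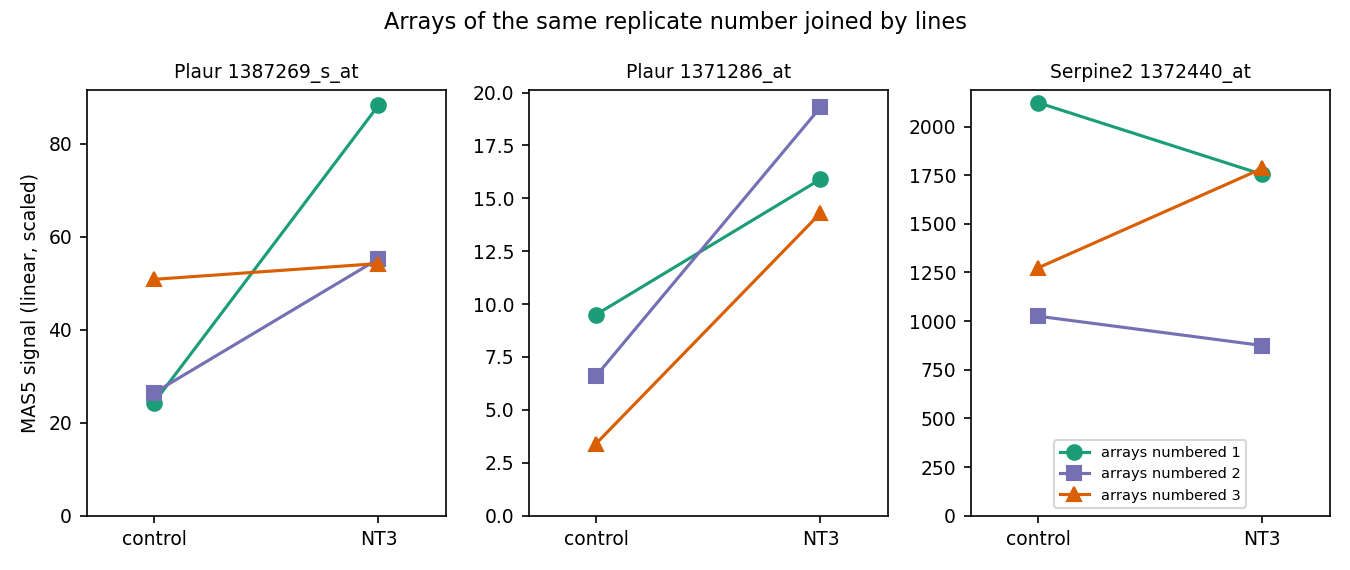
Linear MAS5 signal (y axis) in control and NT3 arrays (x axis) for both Plaur probe sets and for Serpine2, with arrays of the same replicate number joined. All 3 lines go up for both Plaur probe sets, as under any pairing of arrays whose groups do not overlap. They are steepest for number 1 on 1387269_s_at and for number 2 on 1371286_at. The Serpine2 lines for numbers 1 and 2 go down and that for number 3 goes up.

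Plaur lay low on these arrays. The mean log2 signal of 1387269_s_at stood at percentile 41.7 of all probe sets and that of 1371286_at at percentile 16.6, while the tests across probe sets used only those at or above percentile 40. The control mean of 1387269_s_at, 5.00 on the log2 scale, was below that limit of 5.37 and the NT3 mean above it, so this probe set entered the tests through the group where it was high. Among the 3104 probe sets between percentiles 35 and 45, 0.483% had a log2 difference of at least 1 with NT3 higher. Below percentile 40 the share was 7.88%, and at or above it 0.0698%, or 13 of 18625. The median SE was 0.17 for probe sets in the tests and 0.68 for those below them. As the same contrast chose Plaur, these shares describe the signal range and support nothing.

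**Figure D3:**
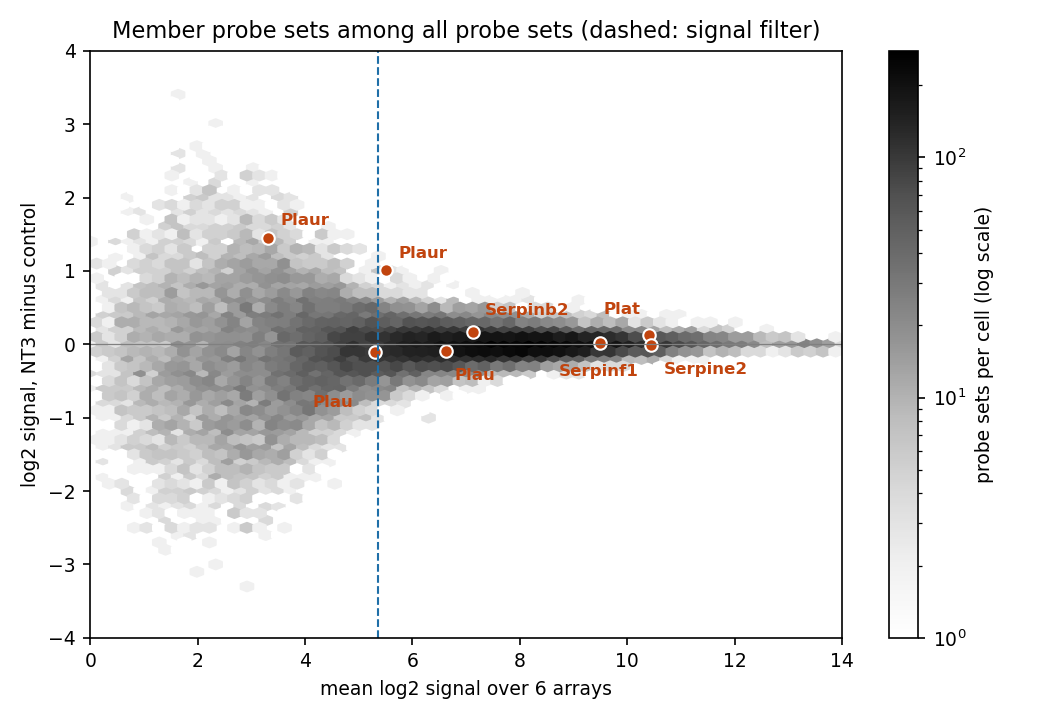
The log2 difference, NT3 minus control (y axis), against the mean log2 signal over the 6 arrays (x axis) for all probe sets in grey, darker where more fall, and the 8 member probe sets in orange. Plaur lies at 1.01 just right of the dashed limit of 5.37 and at 1.45 in the broad low-signal cloud, and the other 6 member probe sets lie near 0; 108 probe sets fall outside the axes.

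Urokinase, the ligand of the receptor, did not share the pattern of Plaur. Plau had signals of 110.4, 76.4 and 126.5 on the control arrays and 105.3, 81.0 and 104.4 on the NT3 arrays on 1387675_at. All 3 NT3 arrays fell inside the control range, and the log2 difference was -0.087 ± 0.23 (SE), with a 95% interval of -0.61 to 0.44. Its other probe set, 1398287_at, read 52.1, 23.4 and 56.0 in control and 35.2, 47.6 and 32.4 in NT3, with a log2 difference of -0.11 ± 0.39. The lowest control value on both probe sets came from control replicate 2. Without that array the log2 differences were -0.30 ± 0.19 and -0.51 ± 0.30, and without control replicate 3 they were 0.067 and 0.12, so that the direction of Plau turned with single arrays.

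Plat, the gene of tissue plasminogen activator, gave a strong signal on its probe set, 1412.1, 1023.8 and 1522.4 on the control arrays and 1599.9, 1375.6 and 1301.2 on the NT3 arrays. Its mean was 1319 ± 262 without and 1426 ± 155 with NT3 (SD, n = 3). The groups overlapped, with the highest array in NT3 and the lowest in control. The log2 difference was 0.13 ± 0.16 (SE), with a 95% interval of -0.23 to 0.48, and -0.046 ± 0.11 without control replicate 2. Signals of different probe sets depend on their probes, so Plat and Plau levels are not ranked against each other.

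Serpine2, which encodes protease nexin-1, an inhibitor of thrombin and of both activators, varied widely between arrays but alike in the 2 groups. Its signals were 2122.9, 1025.4 and 1273.4 on the control arrays and 1753.9, 874.5 and 1785.0 on the NT3 arrays. The arrays numbered 2 were the lowest in both groups. The mean was 1474 ± 576 without and 1471 ± 517 with NT3 (SD, n = 3), and the log2 difference was -0.0060 ± 0.32 (SE), with a 95% interval of -0.72 to 0.71. Once the replicate number entered as a blocking term the SE was 0.15, and without NT3 replicate 2 the difference was 0.33.

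Serpinb2, the gene of the mostly intracellular urokinase inhibitor PAI-2, had signals of 162.8, 107.2 and 128.7 on the control arrays and 148.0, 138.4 and 156.7 on the NT3 arrays. All NT3 arrays lay inside the control range. The log2 difference was 0.17 ± 0.18 (SE), and 0.027 ± 0.16 without control replicate 2, the lowest array. It stayed above 0 with every single array left out, from 0.027 to 0.33.

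Serpinf1 encodes pigment epithelium-derived factor, a secreted serpin that does not inhibit proteases and is known for restraining blood vessel growth. Its probe set was the steadiest of the members, at 760.1, 665.3 and 738.1 on the control arrays and 725.9, 738.6 and 726.1 on the NT3 arrays. The NT3 arrays differed by little, with a coefficient of variation of 0.996%, and sat inside the control range. The log2 difference was 0.020 ± 0.098 (SE), and its 95% interval of -0.20 to 0.24 was the narrowest among the members.

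**Figure D4:**
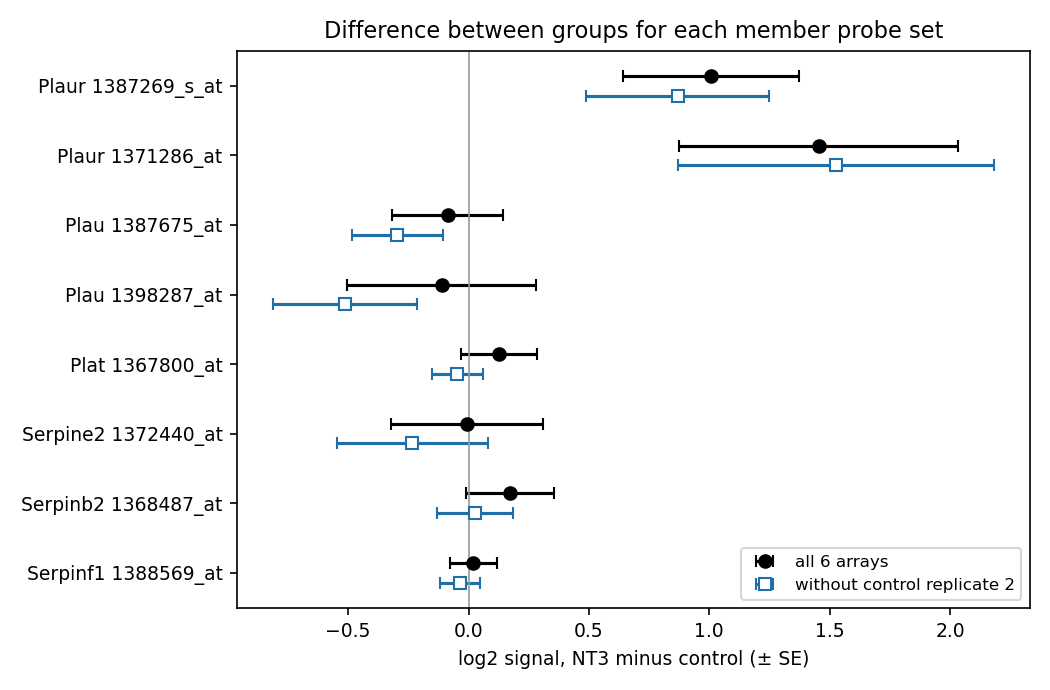
The log2 signal difference, NT3 minus control (x axis, ± SE), of each member probe set with all 6 arrays (black) and without control replicate 2 (blue, open). Both Plaur probe sets stay at 0.87 or above in both settings, whereas Plat and Serpinf1 change sign and Plau and Serpine2 move further below 0.

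Control replicate 2 had the highest 3′ to 5′ signal ratios, a measure of RNA quality, at 6.83 for beta-actin against 2.42 to 2.91 on the other arrays. It was the lowest of the 6 arrays on 5 of the 8 member probe sets, namely both of Plau and those of Plat, Serpinb2 and Serpinf1. The share of all probe sets on which it was the lowest is not given here, so this count is not read as a trait of the members. On both Plaur probe sets and on Serpine2 it ranked 2 from below. Without it the log2 differences of Plaur were 0.87 ± 0.38 on 1387269_s_at and 1.53 ± 0.65 on 1371286_at. Among the other 5 arrays the beta-actin ratio was still 2.42 and 2.60 in control against 2.78 to 2.91 in NT3. For Gapdh it was 1.09 and 1.14 against 1.21 to 1.25. The part of these ratios in the Plaur values was not tested.

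Markers of the tissue were present: all 7 annotated oocyte markers and all 9 granulosa markers passed the signal limit, as did 9 of 10 stroma and theca markers, all but Cyp17a1. The urokinase receptor is known from macrophages, endothelium and stroma, and in whole ovaries a change in the share of such cells and a change in RNA per cell cannot be told apart. Summed signals of the 19 macrophage and leukocyte markers, none of them at 0, ranged from 5879 to 6758 in control and from 6012 to 7308 in NT3, and 15 of the 18 above the signal limit were higher in NT3. Those of 10 endothelial markers ranged from 2479 to 2717 and from 2436 to 2669, with 1 of 9 higher. The summed signals of the 10 stroma and theca markers did not overlap, at 27432 to 28011 in control and 28723 to 31379 in NT3. All 9 above the signal limit were higher in NT3. Taken singly, the groups did not overlap in 1 of these 9 (11.1%), against 5.83% of all tested probe sets. The 8 markers of oviduct and mesonephric epithelium had summed signals of 1782 to 2721 in control and 2293 to 3096 in NT3. The lowest of these control sums came from control replicate 2. All 6 above the signal limit were higher in NT3, and the groups did not overlap in 1 of them (16.7%). Of the macrophage and leukocyte markers they did not overlap in 2 of 18 (11.1%), and of the endothelial, oocyte, granulosa and surface epithelium markers in none. Of oocyte markers 3 of 7 were higher, of granulosa markers 3 of 9, and of surface epithelium and mesothelium markers 3 of 9. The share higher among all tested probe sets was 49.8%. The part of these cell types in the Plaur values was not tested.

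Across all probe sets no gene of the system passed the test. By limma with Benjamini-Hochberg adjustment, 0 of 18625 probe sets (0%) were called at an adjusted p under 0.05. At an unadjusted p under 0.05 there were 240 (1.29%), and 401 once the replicate number entered as a blocking term. Besides the members, 5 lists with 112 genes of the pathway and its families were examined, of which 93 were in the annotation and 55 passed the signal limit, with 1 probe set a gene. None of the 55 was called, 35 were higher and 20 lower in NT3, and the median log2 difference was 0.050 against -0.00054 for all 18625 probe sets. Groups did not overlap in 5 of the 55, or 9.09%, against 5.83% of all tested probe sets. These were Itgb1 and Eno1, which were higher in NT3, and Hgfac, Ly6c and Lypd3, which were lower.

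Genes that act beside the members on plasminogen and in clotting numbered 13 above the limit, 10 higher and 3 lower, with a median of 0.067. The median was 0.025 without NT3 replicate 2 and 0.13 without NT3 replicate 3, and 7 were higher without control replicate 1. The plasminogen-binding surface proteins showed small differences, 0.18 ± 0.14 (SE) for the receptor gene Plgrkt, 0.12 ± 0.15 for S100a10 and 0.060 ± 0.12 for Anxa2. Without control replicate 2 the last 2 were 0.23 and 0.13. Tfpi2, which encodes a Kunitz-type inhibitor of plasmin and other proteases, had signals of 37.6, 33.6 and 46.8 on the control arrays and 64.0, 56.3 and 44.3 on the NT3 arrays. Its groups overlapped through NT3 replicate 3, and its log2 difference was 0.48 ± 0.25. Hgfac, the gene of a protease that activates hepatocyte growth factor, had -0.45 ± 0.20, and -0.22 without control replicate 2, where it was 436.0 against 253.6 and 289.2 in the other controls. The tissue factor gene F3 had 0.27 ± 0.24, and 0.00040 without control replicate 2. Plg, the gene of plasminogen itself, lay below the limit at 25.2 ± 5.05 without and 22.3 ± 6.21 with NT3 (SD, n = 3).

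Among 15 genes of receptor partners and clearance, 12 were higher and 3 lower, with a median of 0.11. With single arrays left out 9 to 11 were higher, with medians from 0.072 to 0.12. Itgb1, which encodes an integrin beta chain through which the urokinase receptor can signal, had 2688.0, 2554.0 and 2770.4 on the control arrays and 3129.2, 3000.8 and 3041.9 on the NT3 arrays. All NT3 arrays were above all controls, and the log2 difference was 0.20 ± 0.087 (SE). The growth factor receptor gene Egfr had 0.32 ± 0.34 and the lipoprotein receptor gene Vldlr 0.31 ± 0.31, and without control replicate 2 they had -0.12 and 0.00087. Lrp1, whose product takes up the receptor with inhibited urokinase, had 0.039 ± 0.16, and 0.22 without control replicate 2.

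Targets of urokinase and plasmin in the matrix numbered 14, 5 higher and 9 lower, with a median of -0.045, and with 8 higher and a median of 0.019 without control replicate 2. Mmp3, the stromelysin gene, whose proenzyme plasmin can activate, had 41.8, 65.9 and 42.7 on the control arrays and 78.2, 77.9 and 62.7 on the NT3 arrays. The groups overlapped through control replicate 2. Its log2 difference was 0.57 ± 0.25 (SE), at an unadjusted limma p of 0.0476 that did not pass adjustment. Mmp9, the gelatinase gene, had -0.30 ± 0.41, and the fibronectin gene Fn1 had 0.24 ± 0.16, against -0.69 and 0.12 without control replicate 2.

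In the family of small surface proteins that share the fold of the urokinase receptor, 5 of 9 genes were higher and 4 lower, with a median of 0.048. Ly6c had 255.8, 341.9 and 332.4 on the control arrays and 188.8, 253.0 and 151.2 on the NT3 arrays. All NT3 arrays lay below all controls, though NT3 replicate 2 and control replicate 1 were close. Its log2 difference was -0.67 ± 0.21 (SE), at an unadjusted limma p of 0.00993 that did not pass adjustment. Lypd3 had -0.34 ± 0.19, and Lynx1 -0.14 ± 0.21, or -0.036 without control replicate 2, its second probe set having the opposite sign. The family's median was -0.069 without control replicate 3 and -0.073 without NT3 replicate 2. Of the other serpins 4 were above the limit, 3 of them higher, with -0.17 ± 0.18 for Serpini1, 0.14 ± 0.23 for Serpinb9 and 0.10 ± 0.15 for Serpinb1a. The second probe set of Serpini1 had the opposite sign, at 0.10. Without control replicate 2 Serpinb9 had -0.037 and Serpinb1a 0.16. Only 1 was higher without NT3 replicate 1, where their median turned from 0.063 to -0.049.

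**Figure D5:**
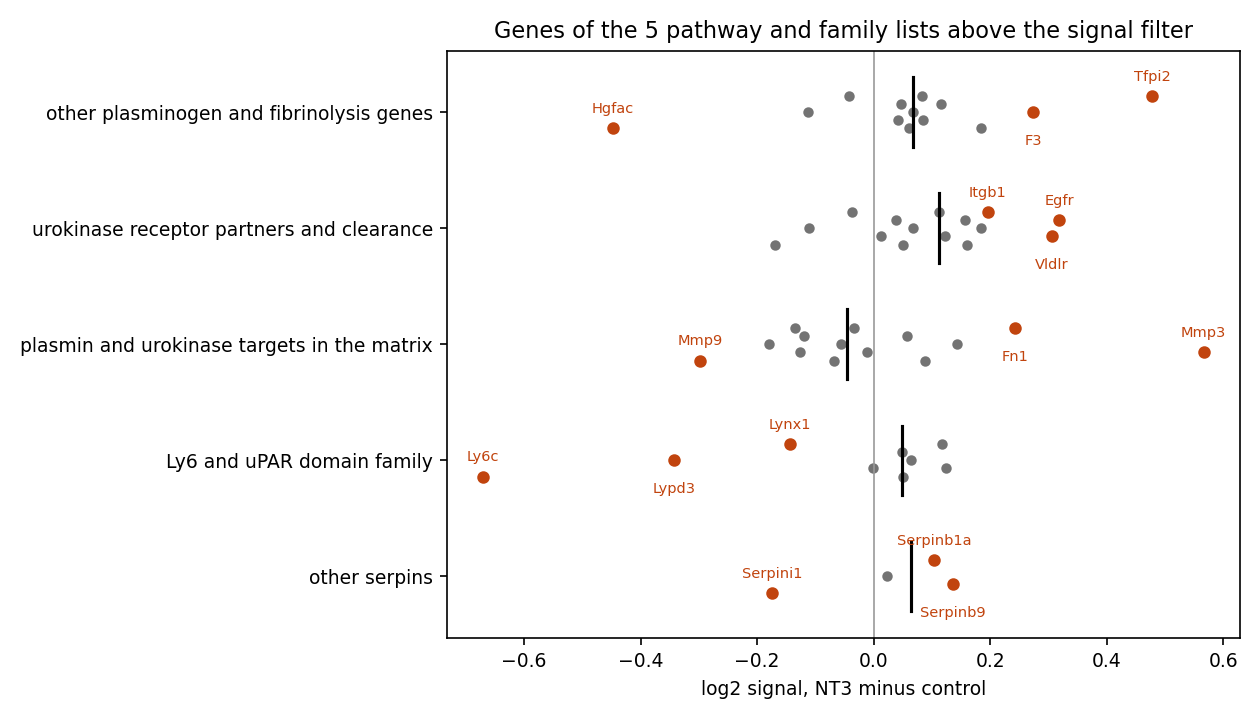
The log2 signal difference, NT3 minus control (x axis), of each gene above the signal limit in the 5 lists, with list medians as vertical bars and the genes named by rule in orange. Medians lie between -0.045 and 0.11, and Ly6c at -0.67 and Mmp3 at 0.57 lie farthest from 0.

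The genes whose pattern over the 6 arrays was most like that of Plaur on 1387269_s_at were Cers2, Pold4, Mga, Cnrip1 and Arl6ip6, at r = 0.99, 0.99, 0.99, 0.96 and 0.96 on log2 signals. Cers2, the gene of a ceramide synthase, ran from 366.0 in control replicate 1 to 493.1 in NT3 replicate 1, the arrays where Plaur too was lowest and highest. Its log2 difference was 0.23 ± 0.12 (SE), against 1.01 for Plaur. The most opposite genes were Vps39, Nub1, Tmem170a, Map7d2 and Msx1, all at r between -0.995 and -0.986. These were the extremes among 14182 probe sets compared over only 6 arrays that share group and labelling, of which 11 had r of 0.95 or more and 20 had -0.95 or less. The other Plaur probe set, at 0.40, would have stood at rank 2792. With all 6 arrays no other member came close, the highest being Plat at r = 0.64. Without control replicate 2 Plat had 0.41. The other genes then had negative values, from -0.19 for Plau on 1387675_at to -0.92 for Serpinf1, which had 0.21 with all arrays.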

How the data were processed

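The authors deposited 1 linear intensity per probe set and array, made with MAS5 per the submitters' processing notes (version not given in the sources used here). Every array had a trimmed mean of 210.1, with 2% cut from both ends, so no further scaling was applied. Signals were taken to log2 with a floor of 0.1, after 57 control probe sets were removed. Probe sets under percentile 40 of mean log2 signal, a signal of 41.3, were left out of the tests, and detection calls were not used here. NT3 was compared with control in limma 3.58.1 (R 4.3.3), with an intensity trend, 2-sided. The fit was also run on simulated data with independent noise per array. Those data held no effect shared by arrays of the same number, so that run says nothing of such an effect here. Member differences and SEs come from the same fit without the signal limit.

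The members and lists were chosen with earlier results of these data known. Named were all members, the 3 genes per list with the largest difference, list genes with an unadjusted p under 0.05, and the 5 genes most like and most unlike Plaur. Plgrkt, S100a10, Anxa2, Eno1, Lrp1 and Plg were named after their values were seen. Each gene was represented by its probe set of highest mean signal. Names came from the array annotation (20826 with 1 symbol, 436 with several, 9780 with none).

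Deviations of same-numbered arrays from their group means correlated at 0.230, 0.247 and 0.222, against at most 0.029 between arrays of different numbers. Such deviations cancel within a group, so positive values for same numbers push the others down, and the latter are not an independent baseline. A possible pairing by replicate number thus rests on the data and not on the labels. The main fit held no block, so its SEs, intervals and p-values leave such pairing out. It entered only where the replicate block is named and in differences between same-numbered arrays. The sample titles call the arrays biological replicates but do not say whether samples came from separate litters. Errors cover only the spread among these samples. The number of arrays limits the precision of every value. Alternatives were the block, other scalings, filters, offset and variance models, and arrays left out.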

Additional observations from a re-analysis of the deposited data

How the results depend on the processing

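The log2 difference of Plaur stayed above 0 on both probe sets in all 12 alternatives. As the groups did not overlap on either probe set, leaving out arrays, the block or the offset could not turn this sign. Only the size of the difference is informative there. It ran from 0.73 (offset of 16) to 1.34 (without control replicate 3) on 1387269_s_at. On 1371286_at it ran from 0.54 (offset of 16) to 1.79 (without control replicate 1). With single arrays left out the lowest were 0.78, without NT3 replicate 1, and 1.05, without control replicate 3. The differences of Plau, Plat, Serpine2 and Serpinf1 changed sign in 2 to 5 of 12 alternatives, and that of Serpinb2 in 0. The Plau value on 1398287_at was -0.68 with both arrays numbered 2 left out.

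Limma called 0 probe sets in 15 of 16 alternatives. It called 4 with the replicate number as a block and without control replicate 2, a fit on 2 pairs added after the data were seen, none of them a member; the cause was not tested. Counts at an unadjusted limma p under 0.05 were 240 of 18625 probe sets with all arrays. Other filters changed the number tested, with 752 of 31042 for no filter and 123 of a smaller number for a filter at percentile 60. Among the same 18625 there were 401 with the replicate block, 377 with no trend and 585 with array weights. There were 514 without both arrays numbered 2, 962 with that added fit, and 176 to 656 with single arrays left out. The replicate block changed no other call. Signals near the lower end, as for Plaur, limit what these arrays can show.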
